A study of Mus musculus with 7 samples.

Results

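Wild-type mouse extra-embryonic endoderm (XEN) cells were compared with Ago2-knockout embryonic stem (ES) cells across all genes. The members were chosen by sample: the 2 libraries of wild-type XEN cells, A and B, against the 3 libraries of knockout ES cells, C4, 5-3_1 and 5-3_2, which makes 5 of the 7 libraries of the series. All cells derive from E14, an ES cell line of 129/Ola background. The ES cells were undifferentiated, carried an Ago2 knockout (lines C4 and 5-3) and grew in serum with leukemia inhibitory factor. The XEN cells were wild type and had been differentiated for 5 days in serum medium with activin A (10 ng/mL) and all-trans retinoic acid (0.1 µM). The other 2 libraries are knockout cells differentiated in the same way (C4 and 5-3), whose values are given for comparison at the end. Genotype and state therefore differ together in this comparison and cannot be told apart in it, and wild-type ES cells are not analysed here. Line 5-3 gave 2 of the 3 ES libraries, and each knockout line is named as a line, with no statement that it is a clone or that libraries are separate cultures. P-values thus measure the spread between these libraries, which may be technical.

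The primitive endoderm is the layer of the blastocyst that forms beside the pluripotent epiblast, under transcription factors of the GATA and SOX families. It gives rise to the visceral endoderm, an absorptive epithelium that takes up maternal proteins and secretes plasma proteins and lipoproteins, and to the parietal endoderm, migratory cells that lay down the thick basement membrane known as Reichert's membrane. XEN cells in culture are known to hold features of both. Making basement membrane loads the secretory pathway, since laminin and type IV collagen are translocated into the endoplasmic reticulum (ER), glycosylated, hydroxylated, folded and exported.

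Total counts were between 36427340 and 48650113 in these 5 libraries. Levels are CPM, counts brought to the same TMM-corrected library total. They are given in the order C4, 5-3_1 and 5-3_2 for the knockout ES cells and A and B for the wild-type XEN cells. Changes are log2 fold changes of wild-type XEN over knockout ES cells, ± SE, from an edgeR quasi-likelihood fit over 18426 genes. The test returns no SE, so it was derived as the absolute log2 fold change divided by the square root of the F statistic. Higher and lower mean a Benjamini-Hochberg adjusted p below 0.05 over all genes tested. Ago2, the Argonaute gene targeted in the knockout (ENSMUSG00000036698, chromosome 15, 73095844 to 73184935, minus strand, mm10), stood at 94.4, 9.37 and 9.65 CPM in the knockout ES cells and 394 and 432 CPM in the wild-type XEN cells. The groups did not overlap, and the C4 library held 10.1 times the lower 5-3 library (log2 fold change 3.45 ± 1.20, edgeR adjusted p = 0.0352). In the knockout XEN libraries Ago2 stood at 122 CPM in C4 and 9.94 CPM in 5-3, so C4 was the higher line there too. Counts per gene do not show which part of Ago2 was deleted, so they do not tell a disrupted transcript from an intact one, and C4 is called a knockout here from its label. The Ago2 call was lost without 5-3_1, 5-3_2, XEN A or XEN B, with adjusted p between 0.0726 and 0.0913. Mitochondrial transcripts held 2.79% to 3.26% of counts in the ES libraries and 1.94% and 2.64% in XEN A and B, and the 10 most abundant genes held 5.30% to 5.91% and 7.75% and 10.3%.

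Of the 18426 genes tested, 5937 were higher in wild-type XEN cells (32.2%) and 5584 were lower (30.3%), so that 62.5% were called in either direction and the median log2 fold change over all genes was -0.03. Changes of at least 2-fold numbered 4766 higher and 4109 lower, and changes of at least 32-fold 775 and 483. Calls are thus so common that the count of any gene list has to be read against these shares. In bulk libraries such as these, fewer cells of a type and less RNA per cell cannot be told apart.

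Among genes of at least 10 CPM, the largest rises included several genes with 0 counts in the ES libraries. Col3a1, a fibrillar collagen chain, had 0 counts in all 3 ES libraries and 318 and 200.4 CPM in the XEN libraries, at least 11524-fold higher against a floor of 3 counts over the ES group. The glucuronosyltransferase genes Ugt2b34 and Ugt1a7c and the protocadherin Pcdh7 also had 0 counts in the ES libraries and were at least 2754-fold, 935-fold and 685-fold higher. The matrix glycoprotein Tnc went from 0.024, 0.0961 and 0.1 CPM to 298 and 243 CPM (log2 fold change 11.75 ± 0.31, edgeR adjusted p = 1.85e-06). Ugt1a7c shares exons with other transcripts of the Ugt1a locus, so its counts are uncertain. The largest falls were Chrna9, a nicotinic receptor subunit with 0 counts in both XEN libraries (at least 384-fold lower), the aspartic protease Napsa, the stathmin Stmn3, the growth factors Fgf15 and Fgf4, the transglutaminase Tgm3, the transcription factor Pou4f2 and nephrin, Nphs1. Napsa was 1229-fold (220.3 to 48545) lower by the ratio of counts with its exact 95% counting interval, Fgf15 669-fold (185 to 5528) and Stmn3 785-fold (141 to 31035). Chrna9 stood at 12.3, 17.6 and 17.6 CPM in the ES libraries.

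**Figure D1:**
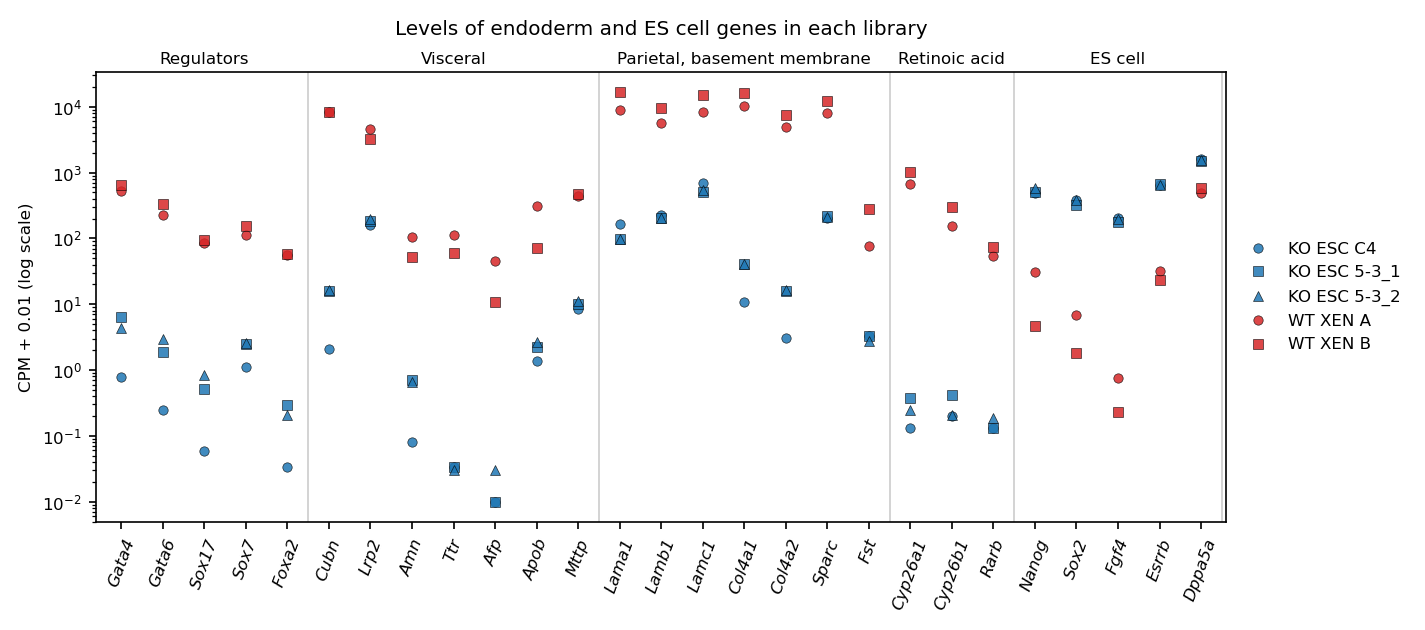
Level of 27 genes in each of the 5 libraries, on a log axis of CPM + 0.01; blue symbols are the 3 knockout ES libraries and red symbols the 2 wild-type XEN libraries. In the endoderm and retinoic acid genes shown, both red symbols lie above all blue ones, and in the ES cell genes below them. The genes were picked for display, and the share of all genes that separate in this way is not given here. Over all genes tested, 62.5% were called in either direction.

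Transcription factors of the primitive endoderm were among the most changed genes. Gata4 (ENSMUSG00000021944, chromosome 14, 63198922 to 63271692, minus strand, mm10) stood at 0.768, 6.44 and 4.34 CPM in the knockout ES cells and 520.2 and 644 CPM in the wild-type XEN cells (log2 fold change 7.24 ± 0.76, edgeR adjusted p = 0.000113). Both XEN libraries were far above all ES libraries, and C4 was the lowest ES library. Sox17, which acts downstream of GATA factors, stood at 0.048, 0.504 and 0.821 CPM in the knockout ES cells and 85.4 and 95.6 CPM in the wild-type XEN cells (log2 fold change 7.58 ± 0.63, edgeR adjusted p = 3.9e-05). Sox7 rose from 1.10, 2.45 and 2.58 to 111 and 157 CPM (6.03 ± 0.42) and Foxa2 from 0.024, 0.288 and 0.2 to 56.3 and 57.6 CPM (8.34 ± 0.71). In Gata4, Sox17 and Foxa2 alike C4 was the lowest ES library, and the lower XEN library was 80.8, 104 and 195 times the highest ES library. Pdgfra, a receptor kinase that marks the primitive endoderm, stood at 1.32, 4.54 and 5.66 CPM in the knockout ES cells and 267 and 767 CPM in the wild-type XEN cells (7.06 ± 0.68), and XEN B was 2.88 times XEN A.

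The primitive endoderm regulators list had 15 genes that were tested, and 12 of them rose, 3 fell and 0 missed the threshold. Across these 15 genes the median log2 fold change was 7.24. The co-regulator Cited1 (7.91 ± 0.43), the forkhead gene Foxq1 (7.68 ± 0.79) and the receptor Fgfr2 (2.71 ± 0.18) were also higher. The members that were lower were Fgfr1, the FGF receptor of the early inner cell mass (-1.36 ± 0.33), the signalling adaptor Grb2 (-0.44 ± 0.13) and Sall4, which the epiblast shares (-0.66 ± 0.22). The call of Grb2 was lost without 5-3_1, 5-3_2, XEN A or XEN B, with adjusted p between 0.0530 and 0.0866, and that of Sall4 without 5-3_1, 5-3_2 or XEN A (0.0655 to 0.174).

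Most visceral endoderm genes tested were higher, and its uptake receptors were among them. Cubn, the receptor cubilin that binds vitamin B12 with intrinsic factor and many filtered proteins (ENSMUSG00000026726, chromosome 2, 13276338 to 13491813, minus strand, mm10), stood at 2.06, 15.7 and 16.5 CPM in the knockout ES cells and 8229 and 8323 CPM in the wild-type XEN cells (log2 fold change 9.501 ± 1.23, edgeR adjusted p = 0.000334). Its share of all counts was 0.824% and 0.78% in the XEN libraries. Lrp2, megalin, its partner in endocytosis, stood at 159, 185 and 199.997 CPM in the knockout ES cells and 4582 and 3186 CPM in the wild-type XEN cells (log2 fold change 4.42 ± 0.21, edgeR adjusted p = 4.74e-06). Amn, amnionless, which carries cubilin to the surface, stood at 0.072, 0.696 and 0.64 CPM in the knockout ES cells and 106 and 51.2 CPM in the wild-type XEN cells (7.36 ± 0.78). Per kilobase of exon, the mean level of Amn in XEN cells was 42.6 and that of Cubn 554 RPKM, which is CPM divided by exon length in kilobases. Dab2, the clathrin adaptor of these receptors, rose from 1.66, 14.1 and 15.2 to 2003 and 2253 CPM (7.69 ± 0.83).

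The visceral endoderm list had 36 genes that were tested, and 30 of them rose, 3 fell and 3 missed the threshold. Across these 36 genes the median log2 fold change was 5.91. With the 2 members at 0 in the ES libraries set to their bound it was 5.59. Of its secreted products, Ttr and Afp were nearly absent from the ES libraries. Ttr, the thyroid hormone carrier transthyretin, had 1 count in each ES library and 112 and 59.9 CPM in the XEN libraries, a ratio of 3816-fold (1305 to 18511) with its exact 95% counting interval. Afp, alpha-fetoprotein, had 1 count over the 3 ES libraries and 45.1 and 10.7 CPM, a ratio of 3725-fold (668 to 147189). The hedgehog ligand Ihh (7.39 ± 0.43), Bmp2 (7.55 ± 0.70), the water channel Aqp8 (8.82 ± 0.87), the calcium binding protein S100g (8.61 ± 0.90), the pepsinogen Pga5 (8.71 ± 1.34) and Npl, an enzyme of sialic acid breakdown (5.49 ± 0.55), were higher too. Trf, transferrin (-2.25 ± 0.74), and the aminopeptidase Anpep (-1.17 ± 0.26) were among the lower members, and the list had 1 lower gene without 5-3_1, XEN A or XEN B. Trf stood under 1 CPM in all 5 libraries, and its call was lost without 5-3_1 (adjusted p = 0.0769) or XEN B (0.173), as was that of Anpep without XEN A (0.0563). Of the anterior visceral endoderm genes, which mark the signalling centre of the early embryo, 9 were tested, 5 rose, 1 fell and 3 missed the threshold. The numbers were 3 higher and 3 lower without XEN A, and 3 higher in the 5 libraries alone. Dkk1, a Wnt inhibitor, stood at 0.048, 0.672 and 0.901 CPM in the knockout ES cells and 81.7 and 38.2 CPM in the wild-type XEN cells (6.76 ± 0.78). Fzd5, a Wnt receptor, was lower (-1.89 ± 0.20), and Cer1 was too low to test, with 0.274 and 0 CPM in XEN A and B.

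Parietal endoderm and basement membrane genes held the largest share of the XEN transcriptome of all the lists described. Lama1, the laminin alpha 1 chain (ENSMUSG00000032796, chromosome 17, 67697259 to 67822647, plus strand, mm10), stood at 168, 97.3 and 98.3 CPM in the knockout ES cells and 9071 and 16467 CPM in the wild-type XEN cells (log2 fold change 6.72 ± 0.52, edgeR adjusted p = 2.75e-05). XEN B was above XEN A by a factor of 1.82, and the lower of them was 54.0 times the highest ES library. Its partner chains Lamb1 and Lamc1 went from 229.9, 205 and 207 to 5672 and 9695 CPM (5.17 ± 0.24) and from 695, 502 and 552 to 8371 and 14975 CPM (4.32 ± 0.27). Col4a1 (ENSMUSG00000031502, chromosome 8, 11198423 to 11312826, minus strand, mm10) stood at 10.7, 40.8 and 41.0 CPM in the knockout ES cells and 10420.1 and 15895 CPM in the wild-type XEN cells (log2 fold change 8.74 ± 0.64, edgeR adjusted p = 2.26e-05), and Col4a2 (ENSMUSG00000031503, chromosome 8, 11312805 to 11449287, plus strand, mm10) at 3.05, 15.7 and 16.4 CPM in the knockout ES cells and 4989 and 7494 CPM in the wild-type XEN cells (log2 fold change 9.06 ± 0.74, edgeR adjusted p = 3.44e-05). Sparc, a matrix protein that binds collagen, stood at 207, 216 and 212 CPM in the knockout ES cells and 7973 and 12357 CPM in the wild-type XEN cells (log2 fold change 5.59 ± 0.22, edgeR adjusted p = 2.61e-06). Together these 6 genes held 0.112% to 0.136% of counts in the ES libraries and 4.66% and 7.20% in XEN A and B.

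Levels between genes were compared per kilobase of exon, as mean RPKM over the XEN libraries. Among 21538 protein-coding genes outside the mitochondrial genome, Sparc ranked 2 at 2684 RPKM, behind the translation factor Eef1a1, with Col4a1 at rank 3 (1763 RPKM), Lamc1 at 4 (1411), Lama1 at 5 (1319) and Col4a2 at 9 (943). In the knockout ES cells the same genes ranked 741, 7053, 525, 3713 and 9200. The third chain of the laminin trimer, Lamb1, stood at 775 RPKM, below Lama1 and Lamc1. The 10 highest among the called rises also included the lysosomal proteases Lgmn and Ctsl, the collagen chaperone Serpinh1, the disulfide isomerase P4hb and the translation factor Eef2. The rise of Eef2 was small (0.44 ± 0.15) and lost its call without 5-3_1, 5-3_2 or XEN A, with adjusted p between 0.107 and 0.137.

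Col4a1 and Col4a2 are neighbours that are read in opposite directions from a shared promoter region, and they moved together here. Their windows from 250 bases before to 50 bases after the RefSeq start (GRCm38.p6, the mm10 assembly) overlap by 78 bases, with starts 21 bases apart. They are printed, with no letters marked, because these genes had the largest fold changes of the basement membrane list. The Col4a1 window is chr8:11312777-11313076, minus strand, and the Col4a2 window chr8:11312555-11312854, plus strand.
Col4a1: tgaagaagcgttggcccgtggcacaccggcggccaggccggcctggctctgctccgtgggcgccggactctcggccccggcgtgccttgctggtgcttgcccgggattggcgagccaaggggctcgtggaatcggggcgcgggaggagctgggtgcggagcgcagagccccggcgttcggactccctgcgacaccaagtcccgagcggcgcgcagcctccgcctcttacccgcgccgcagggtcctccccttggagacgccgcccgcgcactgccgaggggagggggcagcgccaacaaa
Col4a2: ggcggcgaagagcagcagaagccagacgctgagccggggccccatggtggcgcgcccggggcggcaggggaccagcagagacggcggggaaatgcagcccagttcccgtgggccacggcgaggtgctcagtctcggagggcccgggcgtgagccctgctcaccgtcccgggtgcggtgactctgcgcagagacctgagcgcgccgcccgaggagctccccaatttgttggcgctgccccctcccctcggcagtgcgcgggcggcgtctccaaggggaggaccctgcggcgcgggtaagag

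The parietal endoderm list had 24 genes that were tested, and 22 of them rose, 0 fell and 2 missed the threshold. Across these 24 genes the median log2 fold change was 5.39. Their summed share of counts went from 0.286% to 0.349% in the ES libraries to 5.63% and 8.05% in XEN A and B. Beyond the matrix chains, which the basement membrane list shares, the plasminogen activator Plat (8.12 ± 0.34), the parathyroid hormone receptor Pth1r (8.18 ± 0.86), follistatin, Fst (5.85 ± 0.54), the coagulation inhibitors Tfpi (3.44 ± 0.28) and Thbd (5.56 ± 0.39), and Snai1, a repressor of epithelial genes (4.59 ± 0.43), were higher. The mesenchymal filament gene Vim stood at 104, 208 and 202 CPM in the knockout ES cells and 225 and 90.5 CPM in the wild-type XEN cells, with overlapping groups, and fibronectin, Fn1, at 1297, 884 and 854 CPM in the knockout ES cells and 1523 and 966 CPM in the wild-type XEN cells (0.30 ± 0.27), so that neither passed.

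The basement membrane list had 36 genes that were tested, and 29 of them rose, 2 fell and 5 missed the threshold. Across these 36 genes the median log2 fold change was 3.01. Perlecan, Hspg2, went from 177, 195 and 203 to 2182 and 1863 CPM (3.40 ± 0.17), agrin, Agrn, from 168, 205 and 213 to 1022 and 1005 CPM (2.37 ± 0.15) and nidogen 2, Nid2, from 393, 435 and 422 to 1725 and 1966 CPM (2.15 ± 0.14). The chains Col4a5 (5.58 ± 0.22) and Col4a6 (6.26 ± 0.52), the netrin Ntn4 (6.08 ± 0.25) and Tinagl1 (7.41 ± 0.62) were higher as well. Lama3, a laminin chain of stratified epithelia (-2.98 ± 0.52), and Col18a1 (-1.95 ± 0.45) were lower. The collagen chains list had 41 genes that were tested, and 27 of them rose, 6 fell and 8 missed the threshold. Across these 41 genes the median log2 fold change was 2.67. Among them Col12a1 (8.84 ± 0.50) and Col14a1 (5.01 ± 0.25) were higher, and Col6a4 (-5.94 ± 0.63) and Col5a3 (-2.58 ± 0.42) were lower.

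**Figure D2:**
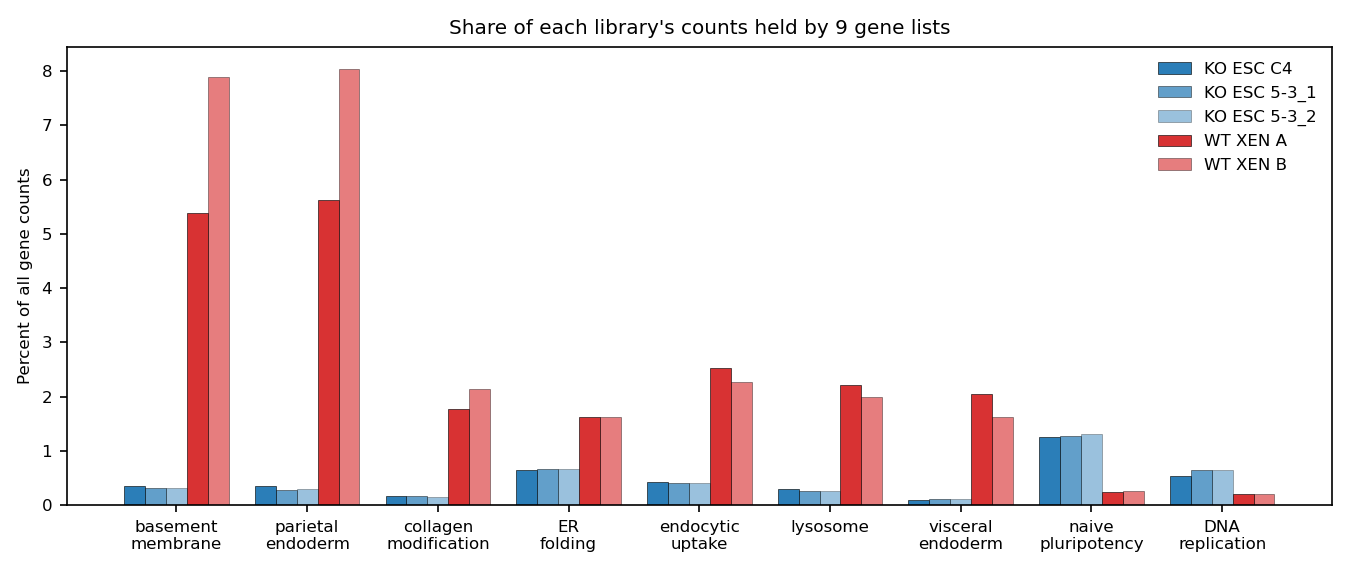
Percent of all gene counts of each library that fell in 9 gene lists; bars start at 0, blue shades are the 3 knockout ES libraries and red shades the 2 wild-type XEN libraries, and some genes stand in more than 1 list. Basement membrane genes held 5.38% and 7.89% of counts in XEN A and B, the parietal endoderm list 5.63% and 8.05%.

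Genes that modify or process collagen were mostly higher, as were most of the collagen chains tested. The collagen modification list had 29 genes that were tested, and 26 of them rose, 2 fell and 1 missed the threshold. Across these 29 genes the median log2 fold change was 2.24. Serpinh1, the chaperone HSP47 that binds the collagen triple helix, stood at 24.7, 51.1 and 61.6 CPM in the knockout ES cells and 2838 and 2499 CPM in the wild-type XEN cells (log2 fold change 5.86 ± 0.38, edgeR adjusted p = 1.36e-05). P4ha2, a catalytic subunit of prolyl 4-hydroxylase, rose from 10.4, 11.4 and 10.7 to 462 and 645 CPM (5.67 ± 0.22), and its paralog P4ha1 from 50.8, 18.4 and 21.9 to 357 and 450.5 CPM (3.73 ± 0.43). The prolyl 3-hydroxylase P3h2 had the largest log2 fold change of the list (7.69 ± 0.59), at 0.12, 1.009 and 0.56 against 88.7 and 146 CPM. The lysyl hydroxylase Plod2 (3.98 ± 0.30), the lysyl oxidases Lox (5.49 ± 0.71) and Loxl2 (5.01 ± 0.36), and the procollagen protease Bmp1 (4.78 ± 0.47) were higher. The enhancers of that protease went the other way: Pcolce stood at 86.4, 116 and 104 CPM in the knockout ES cells and 34.9 and 19.6 CPM in the wild-type XEN cells (-1.90 ± 0.26) and Pcolce2 at 33.9, 25.3 and 25.6 CPM in the knockout ES cells and 0.767 and 0.111 CPM in the wild-type XEN cells (-5.99 ± 0.65).

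Genes of the secretory pathway were higher at each of its stages. In the 5 lists of ER translocation, N-glycosylation, ER folding, COPII and ER exit, and COPI and Golgi, 135 of 173 tested genes rose, 4 fell and 34 missed the threshold. Their summed share was 1.88% to 1.91% of counts in the ES libraries and 3.94% and 3.97% in the XEN libraries, about a doubling. For entry into the ER, 16 of 24 tested genes rose, 2 fell and 6 missed the threshold. The translocon-associated proteins Tram1 (2.49 ± 0.15) and Tram2 (3.61 ± 0.36) changed the most, the pore subunit Sec61a1 rose by 1.06 ± 0.13, and the small subunit Sec61g was lower (-0.999 ± 0.23), as was Srp19 (-0.65 ± 0.18), whose call was lost without XEN A (adjusted p = 0.113).

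The N-glycosylation list had 37 genes that were tested, and 29 of them rose, 1 fell and 7 missed the threshold. Across these 37 genes the median log2 fold change was 1.07. The oligosaccharyltransferase subunits Ddost (1.99 ± 0.14) and Rpn2 (1.75 ± 0.12), the glucosyltransferase Uggt1 that senses misfolded glycoproteins (1.94 ± 0.14) and the Golgi enzyme Mgat1 (2.88 ± 0.17) were higher. Alg13, a subunit of an enzyme early in glycan assembly, stood apart at 564, 334 and 394 CPM in the knockout ES cells and 33.7 and 31.99 CPM in the wild-type XEN cells (log2 fold change -3.71 ± 0.26, edgeR adjusted p = 1.72e-05). It was the only member of the list that was lower.

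The ER folding list had 38 genes that were tested, and 32 of them rose, 1 fell and 5 missed the threshold. Across these 38 genes the median log2 fold change was 1.46. P4hb, which serves both as disulfide isomerase and as the beta subunit of prolyl 4-hydroxylase, stood at 381, 419 and 389 CPM in the knockout ES cells and 2226 and 2347 CPM in the wild-type XEN cells (log2 fold change 2.53 ± 0.14, edgeR adjusted p = 7.12e-06). Pdia5 had the largest log2 fold change (3.51 ± 0.24), and the ER lectin chaperone Calr (1.67 ± 0.14), Pdia3 (1.87 ± 0.14), Herpud1 (2.61 ± 0.20) and Erp29 (2.49 ± 0.17) were higher. The ER chaperone Hspa5, BiP, stood at 658, 856 and 854 CPM in the knockout ES cells and 1627 and 1614 CPM in the wild-type XEN cells (1.04 ± 0.16). Hsp90b1 was less changed (0.55 ± 0.16), and its call was lost without 5-3_1, 5-3_2 or XEN B (adjusted p 0.0506 to 0.1065). Canx and Creld2 did not pass (0.41 ± 0.16 and -0.03 ± 0.27), although Canx did without C4 (adjusted p = 0.0309) or XEN A (0.0363), and Derl3 was lower (-1.05 ± 0.25).

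The ER stress response element (CCAAT, any 9 bases, then CCACG) was searched on both strands. It was in the RefSeq promoter window of 9 of the 32 ER folding genes with a window (28.1%): Calr, Canx, Creld2, Derl3, Dnajc3, Hsp90b1, Hspa5, Pdia6 and Syvn1. Over all 27025 genes with a window it was in 37 (0.137%). Of the 9 genes, 6 were higher, Canx and Creld2 did not pass and Derl3 was lower, against 32 of 38 higher in the whole ER folding list. Among all genes with a window, the element was in 0.18% of those called higher, 0.137% of those called lower and 0.206% of those that did not pass. The windows of Hspa5 (chr2:34771840-34772139, plus strand) and Calr (chr8:84846882-84847181, minus strand) on GRCm38.p6 are printed as examples of higher genes, with the match in capitals. It begins 65 bases before the start in Hspa5 and, on the opposite strand, 162 bases before it in Calr.
Hspa5: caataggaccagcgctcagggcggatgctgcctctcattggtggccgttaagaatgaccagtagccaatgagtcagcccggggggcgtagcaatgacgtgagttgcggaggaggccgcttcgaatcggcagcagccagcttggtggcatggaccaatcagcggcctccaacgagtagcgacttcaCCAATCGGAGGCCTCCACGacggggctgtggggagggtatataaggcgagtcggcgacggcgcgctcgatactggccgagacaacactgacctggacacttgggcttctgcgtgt
Calr: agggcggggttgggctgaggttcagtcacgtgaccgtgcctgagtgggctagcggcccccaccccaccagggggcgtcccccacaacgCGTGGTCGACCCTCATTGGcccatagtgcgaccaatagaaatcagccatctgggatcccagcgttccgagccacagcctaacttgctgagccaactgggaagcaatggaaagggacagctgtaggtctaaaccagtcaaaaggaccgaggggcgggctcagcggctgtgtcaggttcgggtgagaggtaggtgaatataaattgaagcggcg

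The COPII and ER exit list had 37 genes that were tested, and 32 of them rose, 0 fell and 5 missed the threshold. Across these 37 genes the median log2 fold change was 1.02. The KDEL receptor Kdelr3, which returns ER proteins from the Golgi, rose from 9.34, 16.8 and 17.0 to 190.1 and 234 CPM (3.88 ± 0.38), and Kdelr1 and Kdelr2 by 2.54 ± 0.15 and 1.85 ± 0.15. The cargo receptors Surf4 (2.55 ± 0.14) and Tmed3 (3.75 ± 0.21), the coat subunit Sec24d (2.403 ± 0.19), and Mia3, which helps load bulky collagen (1.66 ± 0.17), were higher. The COPI and Golgi list had 37 genes that were tested, and 26 of them rose, 0 fell and 11 missed the threshold. Across these 37 genes the median log2 fold change was 0.81. The coat subunit Copa (1.96 ± 0.14) and the trans-Golgi protein Tgoln1 (2.31 ± 0.13) had the smallest adjusted p of that list. The secretory transcription factors list had 14 genes that were tested, and 8 of them rose, 1 fell and 5 missed the threshold. Across these 14 genes the median log2 fold change was 1.07. Creb3l2 and Creb3l1, membrane-bound factors of the CREB3 family, stood at 13.8, 6.10 and 6.56 CPM in the knockout ES cells and 471 and 571 CPM in the wild-type XEN cells (5.88 ± 0.41) and at 12.7, 14.2 and 10.6 CPM in the knockout ES cells and 211 and 259.7 CPM in the wild-type XEN cells (4.23 ± 0.18). The unfolded protein response genes Atf6 (1.95 ± 0.14), Ern1 (2.01 ± 0.22), Ddit3 (2.07 ± 0.18) and Xbp1 (1.33 ± 0.13) were higher by less, and Atf4 was lower (-0.90 ± 0.26). The Atf4 call was lost without 5-3_1, XEN A or XEN B, with adjusted p between 0.0541 and 0.0983.

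**Figure D3:**
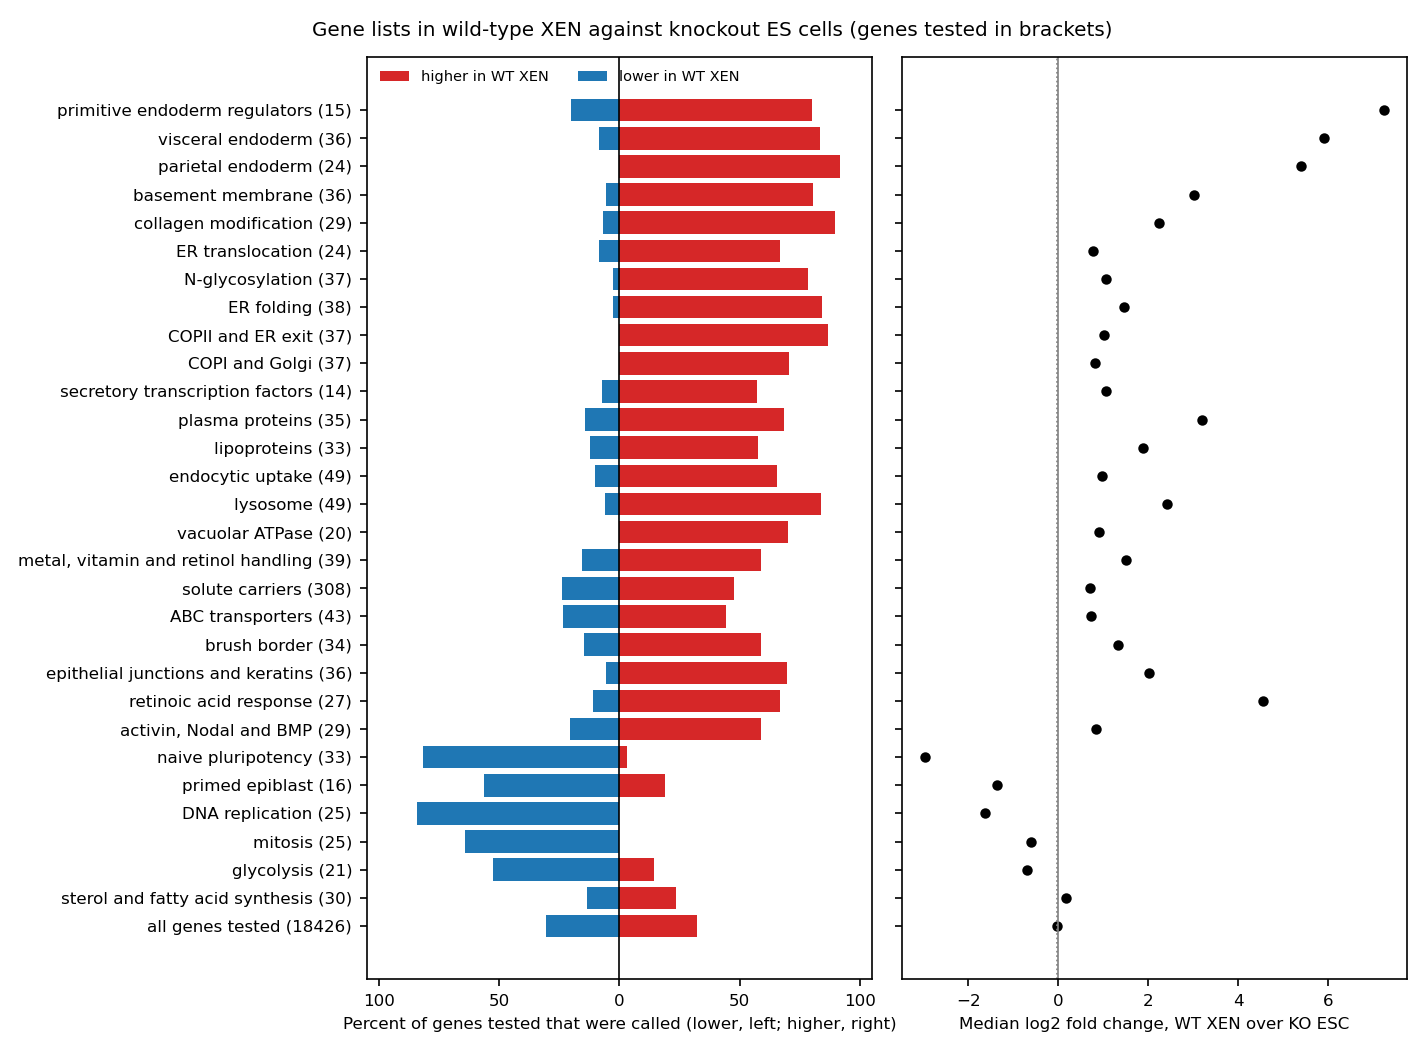
Left, percent of the genes tested in each list that were called higher (red, right) or lower (blue, left) in wild-type XEN against knockout ES cells; right, median log2 fold change, with the median of all genes as a dotted line. Against 32.2% higher and 30.3% lower over all genes, 22 of 24 parietal endoderm genes were higher and 21 of 25 DNA replication genes were lower.

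Plasma proteins and lipoprotein genes were higher in part, with many members near 0. The plasma proteins list had 35 genes that were tested, and 24 of them rose, 5 fell and 6 missed the threshold. Across these 35 genes the median log2 fold change was 3.19. Clu, the chaperone clusterin (10.1, 23.7 and 21.9 CPM in the knockout ES cells and 1989 and 1330.1 CPM in the wild-type XEN cells; 6.48 ± 0.40), and the growth factor Igf2 (5.66, 5.16 and 4.68 CPM in the knockout ES cells and 1064 and 566 CPM in the wild-type XEN cells; 7.30 ± 0.45) were higher. The vitamin B12 carrier Tcn2 (5.15 ± 0.23), the vitamin D carrier Gc (8.57 ± 0.998), the fibrinogen chain Fgb (8.18 ± 0.79) and the serpin Serpinf1 (3.03 ± 0.22) were higher. Albumin, Alb, was not tested, with 0.024, 0.024 and 0 CPM in the ES libraries and 0 and 0.0276 CPM in the XEN libraries. Fetub (-2.84 ± 0.50), Kng1 (-1.51 ± 0.39) and the binding protein Igfbp2 (-1.57 ± 0.55) were lower, and the calls of Kng1 and Igfbp2 were lost without some libraries (Kng1 without XEN A, adjusted p = 0.0685; Igfbp2 without C4, 5-3_1, 5-3_2 or XEN B, 0.0518 to 0.0712). The count of lower members was 2 without 5-3_1 and 3 without each other library.

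The lipoproteins list had 33 genes that were tested, and 19 of them rose, 4 fell and 10 missed the threshold. Across these 33 genes the median log2 fold change was 1.89. Mttp, which loads lipid onto apolipoprotein B, stood at 8.31, 10.2 and 11.4 CPM in the knockout ES cells and 435 and 471 CPM in the wild-type XEN cells (log2 fold change 5.50 ± 0.20, edgeR adjusted p = 2.34e-06). Apob itself stood at 1.34, 2.21 and 2.66 CPM in the knockout ES cells and 309 and 71.0 CPM in the wild-type XEN cells (log2 fold change 6.51 ± 0.75, edgeR adjusted p = 0.000184), so that its XEN libraries differed by 4.35-fold while those of Mttp were close. Apoa4 and the fatty acid binding protein Fabp1 had 0 counts in the ES libraries and stood at 10.1 and 6.08 CPM (Apoa4) and 3.23 and 2.49 CPM (Fabp1) in XEN A and B. The cholesterol acyltransferase Soat1 (4.15 ± 0.42), the receptor Vldlr (4.41 ± 0.43), Fabp3 (4.02 ± 0.22) and Apoe (1.78 ± 0.36) were higher. Apod (-5.55 ± 1.13), the editing enzyme Apobec1 (-3.36 ± 0.35) and the lipase inhibitor Angptl4 (-2.75 ± 0.48) were lower. The serpins list had 26 genes that were tested, and 19 of them rose, 2 fell and 5 missed the threshold. Across these 26 genes the median log2 fold change was 3.65. It was 3.11 when the 3 members with a group at 0 were set to their bound.

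Genes of endocytic uptake and of the lysosome were higher in large part. The endocytic uptake list had 49 genes that were tested, and 32 of them rose, 5 fell and 12 missed the threshold. Across these 49 genes the median log2 fold change was 0.98. Their share went from 0.402% to 0.417% in the ES libraries to 2.53% and 2.26%, of which Cubn, Lrp2 and Dab2 made up 58.7% and 57.0%. Lrpap1, the chaperone of the megalin family, stood at 79.1, 91.8 and 83.5 CPM in the knockout ES cells and 2187 and 1901 CPM in the wild-type XEN cells (4.59 ± 0.38), the chloride transporter Clcn5 of endosomes at 20.5, 19.8 and 20.9 CPM in the knockout ES cells and 541 and 745 CPM in the wild-type XEN cells (4.98 ± 0.25) and the motor Myo6 at 24.9, 5.74 and 8.03 CPM in the knockout ES cells and 551 and 595 CPM in the wild-type XEN cells (5.48 ± 0.62). Clathrin heavy chain, Cltc, rose from 788, 601 and 651 to 2404 and 2467 CPM (1.84 ± 0.15). The light chain Cltb (-1.04 ± 0.25) and the adaptor Picalm (-0.71 ± 0.13) were lower, and 3 members were lower without XEN A or XEN B.

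The lysosome list had 49 genes that were tested, and 41 of them rose, 3 fell and 5 missed the threshold. Across these 49 genes the median log2 fold change was 2.43. Ctsl, cathepsin L (ENSMUSG00000021477, chromosome 13, 64359337 to 64370890, minus strand, mm10), stood at 127, 94.6 and 87.1 CPM in the knockout ES cells and 6556 and 4969 CPM in the wild-type XEN cells (log2 fold change 5.81 ± 0.26, edgeR adjusted p = 3.91e-06), and the asparaginyl protease Lgmn at 39.1, 43.4 and 39.8 CPM in the knockout ES cells and 2605 and 2575 CPM in the wild-type XEN cells (log2 fold change 5.99 ± 0.21, edgeR adjusted p = 2.34e-06). The protease Ctsh had the largest log2 fold change of the list, from 0.432, 0.937 and 1.10 to 740.3 and 540.2 CPM (9.58 ± 0.76). Further proteases, Ctsc (5.88 ± 0.27), Ctsz (4.35 ± 0.17) and Tpp1 (2.69 ± 0.14), glycosidases such as Gaa (3.31 ± 0.13), Neu1 (4.72 ± 0.21) and Galns (4.70 ± 0.16), and the membrane proteins Lamp1 (2.36 ± 0.13) and Cd63 (3.81 ± 0.15) were higher. The mannosidase gene Manba was lower (-1.19 ± 0.13). Tfeb, a transcription factor of lysosomal genes, was lower too, at 24.9, 27.0 and 25.5 CPM in the knockout ES cells and 4.99 and 4.64 CPM in the wild-type XEN cells (log2 fold change -2.42 ± 0.19, edgeR adjusted p = 3.09e-05). The palindrome known from such genes as the CLEAR element, GTCAC followed at once by GTGAC, was in the promoter window of 0 of 41 lysosome genes with a window and of 100 of all 27025 (0.37%). At so low a share, 41 genes are too few to tell the list from all genes, and only this exact form was searched. The vacuolar ATPase is the proton pump that acidifies these compartments. The vacuolar ATPase list had 20 genes that were tested, and 14 of them rose, 0 fell and 6 missed the threshold. Across these 20 genes the median log2 fold change was 0.91.

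Transporters of small molecules changed in both directions. The solute carriers list had 308 genes that were tested, and 147 of them rose, 74 fell and 87 missed the threshold. Across these 308 genes the median log2 fold change was 0.71. Of the zinc carriers, 16 of 22 were higher and 3 lower, and of the monocarboxylate carriers 10 of 13 were higher and 1 lower. Of 45 mitochondrial carriers, 12 were higher and 15 lower, close to the shares over all genes. These families were formed after the values were known. Slc39a8, a zinc and manganese importer, stood at 0.408, 0.528 and 0.4 CPM in the knockout ES cells and 127 and 111 CPM in the wild-type XEN cells (log2 fold change 8.05 ± 0.32, edgeR adjusted p = 2.61e-06), and the prostaglandin carrier Slco2a1 at 0.456, 3.99 and 3.58 CPM in the knockout ES cells and 566 and 403 CPM in the wild-type XEN cells (7.49 ± 0.89). The amino acid carrier Slc7a6 (2.70 ± 0.14) was higher, and Slc5a11 (-3.25 ± 0.23) and Slco4a1 (-5.10 ± 0.41) were lower. The ABC transporters list had 43 genes that were tested, and 19 of them rose, 10 fell and 14 missed the threshold. Across these 43 genes the median log2 fold change was 0.72. Abca3 (4.15 ± 0.23), a lipid transporter, was higher, and Abcg1 (-2.93 ± 0.40) was lower.

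The metal, vitamin and retinol handling list had 39 genes that were tested, and 23 of them rose, 6 fell and 10 missed the threshold. Across these 39 genes the median log2 fold change was 1.498. Iron genes changed in opposite directions: the transferrin receptor Tfrc stood at 638, 488 and 544 CPM in the knockout ES cells and 45.4 and 52.7 CPM in the wild-type XEN cells (log2 fold change -3.50 ± 0.18, edgeR adjusted p = 6.21e-06), whereas the iron exporter Slc40a1, ferroportin, stood at 3.07, 2.21 and 2.24 CPM in the knockout ES cells and 207 and 153 CPM in the wild-type XEN cells (log2 fold change 6.16 ± 0.23, edgeR adjusted p = 2.61e-06). The folate receptor Folr1 (2.66 ± 0.42) and the folate carrier Slc46a1 (2.83 ± 0.17) were higher. For retinol, the plasma carrier Rbp4 (5.68 ± 0.42), its receptor Stra6 (6.74 ± 0.33) and the dehydrogenase Rdh10 (4.23 ± 0.22) were higher. The metal importer Slc39a14 was lower (-1.32 ± 0.17), and the count of lower members was 3 without 5-3_1, 5-3_2 or XEN B.

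Apical and epithelial genes changed member by member. The brush border list had 34 genes that were tested, and 20 of them rose, 5 fell and 9 missed the threshold. Across these 34 genes the median log2 fold change was 1.33. The chloride channel proteins Clic6 and Clic5 stood at 0.504, 0.408 and 0.48 CPM in the knockout ES cells and 650.3 and 570.5 CPM in the wild-type XEN cells (10.35 ± 0.46) and at 0.048, 0.288 and 0.42 CPM in the knockout ES cells and 88.7 and 90.1 CPM in the wild-type XEN cells (8.41 ± 0.49). The peptidase Enpep stood at 0, 0.072 and 0.1 CPM in the knockout ES cells and 28.6 and 162 CPM in the wild-type XEN cells (10.56 ± 0.99), so that XEN B was 5.66 times XEN A. Podocalyxin, Podxl, rose from 56.3, 29.5 and 27.3 to 1100.3 and 759 CPM (4.62 ± 0.46), and Eps8l2 by 3.96 ± 0.17. The actin nucleator Cobl stood at 362, 381 and 374 CPM in the knockout ES cells and 12.7 and 9.76 CPM in the wild-type XEN cells (-5.05 ± 0.21), and the myosin Myo1a was lower too (-3.04 ± 0.38). Without XEN B 3 members were lower.

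The epithelial junctions and keratins list had 36 genes that were tested, and 25 of them rose, 2 fell and 9 missed the threshold. Across these 36 genes the median log2 fold change was 2.02. The simple epithelial keratin Krt18 stood at 3.17, 7.18 and 8.95 CPM in the knockout ES cells and 618 and 354 CPM in the wild-type XEN cells (6.24 ± 0.47), Krt8 at 2.18, 12.9 and 10.8 CPM in the knockout ES cells and 417 and 231 CPM in the wild-type XEN cells (5.23 ± 0.66) and Krt19 at 3.55, 4.01 and 3.94 CPM in the knockout ES cells and 159 and 103 CPM in the wild-type XEN cells (5.09 ± 0.23). The claudins Cldn6 (4.71 ± 0.37) and Cldn7 (5.36 ± 0.47), desmocollin Dsc2 (5.55 ± 0.42), desmoplakin Dsp (3.76 ± 0.33) and the junction receptor F11r (2.75 ± 0.15) were higher. E-cadherin, Cdh1, stood at 455, 428 and 451 CPM in the knockout ES cells and 700.0 and 450.3 CPM in the wild-type XEN cells, and Epcam at 131, 98.7 and 110.3 CPM in the knockout ES cells and 158 and 108 CPM in the wild-type XEN cells. Neither of these surface genes passed, and in both the groups overlapped. The epithelial regulator Grhl2 was lower, as was plakophilin Pkp2 (-1.21 ± 0.38; call lost without C4 or XEN B, adjusted p = 0.0598 and 0.0911), Grhl2 from 109.6, 76.8 and 80.4 to 3.40 and 3.32 CPM (-4.73 ± 0.37).

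Genes known to respond to the culture factors changed as well. The retinoic acid response list had 27 genes that were tested, and 18 of them rose, 3 fell and 6 missed the threshold. Across these 27 genes the median log2 fold change was 4.55. Cyp26a1, which degrades retinoic acid (ENSMUSG00000024987, chromosome 19, 37697798 to 37701536, plus strand, mm10), stood at 0.12, 0.36 and 0.24 CPM in the knockout ES cells and 659 and 1004 CPM in the wild-type XEN cells (log2 fold change 11.74 ± 0.38, edgeR adjusted p = 2.34e-06), and Cyp26b1 at 0.192, 0.408 and 0.2 CPM in the knockout ES cells and 154 and 297 CPM in the wild-type XEN cells (9.72 ± 0.41). The receptor Rarb stood at 0.12, 0.12 and 0.18 CPM in the knockout ES cells and 54.1 and 73.6 CPM in the wild-type XEN cells (log2 fold change 8.78 ± 0.26, edgeR adjusted p = 1.85e-06), while Rarg went from 120.1, 366 and 357 to 23.4 and 13.5 CPM (-3.93 ± 0.54). Dhrs3 (7.33 ± 0.29), Meis1 (6.15 ± 0.22) and the homeobox gene Hoxb2 (9.001 ± 0.61) were higher, and the binding protein Crabp1 was lower (-1.73 ± 0.49), a call lost without XEN B (adjusted p = 0.0582), where 1 member of the list was lower.

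A direct repeat of receptor hexamers with 5 bases between them was searched on both strands. The hexamer could be AGGTCA, or the forms AGTTCA as well as GGGTCA, or finally GGTTCA, in any pairing. Such a repeat was in the promoter window of 2 of 19 retinoic acid list genes with a window, Cyp26a1 and Rarb, and of 31 of all 27025 genes (0.115%). Their windows on GRCm38.p6, chr19:37697558-37697857, plus strand and chr14:16575427-16575726, minus strand, are printed with the match in capitals because these are among the largest rises of the list. The match begins 32 bases before the start in Cyp26a1, on the opposite strand, and 53 bases before it in Rarb.
Cyp26a1: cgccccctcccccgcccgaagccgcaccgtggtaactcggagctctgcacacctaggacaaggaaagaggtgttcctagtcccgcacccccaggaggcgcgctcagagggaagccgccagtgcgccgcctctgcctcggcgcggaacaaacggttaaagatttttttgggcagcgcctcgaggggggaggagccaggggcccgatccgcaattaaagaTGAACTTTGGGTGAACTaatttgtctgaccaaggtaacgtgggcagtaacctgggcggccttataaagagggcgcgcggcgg
Rarb: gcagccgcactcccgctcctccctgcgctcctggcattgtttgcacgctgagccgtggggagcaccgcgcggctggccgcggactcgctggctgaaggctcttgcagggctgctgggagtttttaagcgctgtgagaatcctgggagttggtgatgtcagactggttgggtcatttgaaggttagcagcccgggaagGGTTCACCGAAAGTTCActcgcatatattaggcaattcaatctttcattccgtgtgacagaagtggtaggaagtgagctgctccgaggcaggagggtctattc

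The activin, Nodal and BMP list had 29 genes that were tested, and 17 of them rose, 6 fell and 6 missed the threshold. Across these 29 genes the median log2 fold change was 0.84. Follistatin, Fst, an activin antagonist (3.34, 3.27 and 2.72 CPM in the knockout ES cells and 75.8 and 284 CPM in the wild-type XEN cells; 5.85 ± 0.54), was higher. The co-receptor Tdgf1 stood at 719.7, 685 and 726 CPM in the knockout ES cells and 3.92 and 2.90 CPM in the wild-type XEN cells (-7.70 ± 0.38), and the activin subunit Inhbb was lower (-5.45 ± 0.86). Lefty1 and Lefty2, Nodal targets, did not pass and differed between the XEN libraries, with Lefty1 at 60.2 and 1.16 CPM and Lefty2 at 62.5 and 0.387 CPM in A and B. Without XEN A both were lower (adjusted p = 0.00987 and 0.0108).

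Naive pluripotency genes were lower, but several kept a measurable level. The naive pluripotency list had 33 genes that were tested, and 1 of them rose, 27 fell and 5 missed the threshold. Across these 33 genes the median log2 fold change was -2.97. Fgf4 stood at 205, 177 and 199 CPM in the knockout ES cells and 0.74 and 0.221 CPM in the wild-type XEN cells (log2 fold change -8.64 ± 0.46, edgeR adjusted p = 6.47e-06), Sox2 at 386, 322 and 379.7 CPM in the knockout ES cells and 6.82 and 1.82 CPM in the wild-type XEN cells (log2 fold change -6.39 ± 0.58, edgeR adjusted p = 5.9e-05) and Nanog at 488, 506 and 585 CPM in the knockout ES cells and 30.7 and 4.62 CPM in the wild-type XEN cells (log2 fold change -4.90 ± 0.75, edgeR adjusted p = 0.000792). In the last pair XEN A was above XEN B, by 3.74-fold and 6.66-fold. Klf2 (-7.31 ± 0.39), Gdf3 (-7.73 ± 0.41), Esrrb (-4.57 ± 0.19) and Zfp42 (-4.13 ± 0.19) were lower. Pou5f1, the core factor OCT4, stood at 844, 1128 and 1051 CPM in the knockout ES cells and 96.0 and 84.7 CPM in the wild-type XEN cells (log2 fold change -3.48 ± 0.45, edgeR adjusted p = 0.000343). Dppa5a stood at 1606, 1493 and 1562 CPM in the knockout ES cells and 489 and 577 CPM in the wild-type XEN cells (-1.54 ± 0.35), a call lost without XEN A (adjusted p = 0.0574). Per kilobase of exon it ranked 12 in the XEN and 2 in the ES cells. Klf4 (-0.10 ± 0.20), Klf5 (-0.15 ± 0.20), Tbx3 (0.02 ± 0.21), Lin28a (-0.71 ± 0.35) and Mycn (-0.34 ± 0.22) did not pass, and Klf4 stood at 76.2 and 119.7 CPM in A and B. Lin28a was lower without XEN B (adjusted p = 0.0471), in the 5 libraries alone (0.0498) and with a replicate block (0.0470). Stat3 was higher (0.44 ± 0.15), a call lost without C4, 5-3_1, 5-3_2 or XEN B (adjusted p 0.0635 to 0.194). The primed epiblast list had 16 genes that were tested, and 3 of them rose, 9 fell and 4 missed the threshold. Across these 16 genes the median log2 fold change was -1.36. The cadherin Cdh2 was higher (3.59 ± 0.27) and Foxd3 was lower (-6.89 ± 0.70).

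DNA replication genes were mostly lower, and mitosis and glycolysis genes were lower in part. The DNA replication list had 25 genes that were tested, and 0 of them rose, 21 fell and 4 missed the threshold. Across these 25 genes the median log2 fold change was -1.63. The replication initiation factor Mcm10 stood at 226, 290.1 and 285 CPM in the knockout ES cells and 56.4 and 57.2 CPM in the wild-type XEN cells (-2.23 ± 0.16), and Gins1 at 57.1, 62.5 and 59.3 CPM in the knockout ES cells and 11.7 and 11.9 CPM in the wild-type XEN cells (-2.34 ± 0.16). The mitosis list had 25 genes that were tested, and 0 of them rose, 16 fell and 9 missed the threshold. Across these 25 genes the median log2 fold change was -0.59. The spindle checkpoint gene Bub1b (-1.65 ± 0.14) was lower, and Mki67, the proliferation antigen Ki-67, stood at 554, 314 and 334 CPM in the knockout ES cells and 321 and 585 CPM in the wild-type XEN cells (0.18 ± 0.31) with overlapping groups. The replication list thus changed by more than the mitosis list, a difference that was not tested. The glycolysis list had 21 genes that were tested, and 3 of them rose, 11 fell and 7 missed the threshold. Across these 21 genes the median log2 fold change was -0.70. The kinase Pdk1 (-2.11 ± 0.14) and the phosphofructokinase Pfkp (-1.46 ± 0.21) were lower, and the glucose carrier Slc2a3 (1.75 ± 0.36) and Pfkl (1.28 ± 0.20) were higher. The sterol and fatty acid synthesis list had 30 genes that were tested, and 7 of them rose, 4 fell and 19 missed the threshold. Across these 30 genes the median log2 fold change was 0.17. The elongase Elovl6 was lower (-1.87 ± 0.21), and Srebf1, a regulator of lipid synthesis (1.76 ± 0.18), was higher. Without XEN B 14 genes of that list were higher, and without XEN A 9 were lower.

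Markers of other lineages were checked in the XEN libraries. Fibroblast genes had the highest median of these lists: 18 of 20 tested rose and 2 fell. Their median log2 fold change was 5.82, and 5.73 when the 3 members at 0 in the ES libraries were set to their bound. Their summed level was 52.1 to 57.3 CPM in the ES libraries and 2106 and 944 CPM in XEN A and B, and in XEN A every member at 10 CPM or more was above XEN B. Acta2, smooth muscle actin, stood at 13.3, 1.59 and 1.72 CPM in the knockout ES cells and 655 and 266 CPM in the wild-type XEN cells (6.38 ± 0.97), Tagln at 4.18, 5.98 and 5.96 CPM in the knockout ES cells and 420.1 and 199.9 CPM in the wild-type XEN cells (5.85 ± 0.35) and Col1a2 at 0.192, 0.12 and 0.06 CPM in the knockout ES cells and 212 and 57.9 CPM in the wild-type XEN cells (10.09 ± 0.70). The lower members were Thy1 (-2.28 ± 0.71) and Mfap5 (-1.75 ± 0.45); the call of Thy1 was lost without 5-3_1, 5-3_2, XEN A or XEN B (adjusted p 0.0509 to 0.133) and that of Mfap5 without XEN B (0.0566). In the knockout XEN libraries C4 and 5-3 the summed level of the fibroblast list was 11361 and 13935 CPM. The parietal endoderm list held 2.43% and 2.54% of counts there, against 5.63% and 8.05% in XEN A and B. Whether cells of another type lie behind the fibroblast values was not tested. Of the 22 fibroblast symbols in the file, 3 stood under 1 CPM in both wild-type XEN libraries, among them Fap (0.356 and 0.194 CPM) and S100a4 (0.164 and 0.0553 CPM).

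Few members of the other marker lists reached 10 CPM. In the definitive endoderm list 6 of 15 tested genes rose and 1 fell, and in the mesoderm list 8 of 20 rose and 4 fell. In the neuroectoderm list 4 of 16 rose and 8 fell, and in the trophoblast list 8 of 16 rose and 2 fell. Over all genes 32.2% rose and 30.3% fell. Summed levels in the ES libraries and in XEN A and B were 353 to 451 against 57.9 and 60.4 CPM for definitive endoderm. They were 45.0 to 91.5 against 80.4 and 61.5 CPM for mesoderm. For neuroectoderm they were 584 to 620 against 148 and 104 CPM, and for trophoblast 555 to 641 against 1434 and 1292 CPM. The count of lower mesoderm genes was 2 without 5-3_1 or 5-3_2 and 1 without XEN B, and that of higher trophoblast genes 5 without 5-3_1 or XEN A. Of 20 definitive endoderm and gut symbols, 1 reached 10 CPM in both XEN libraries, the homeobox gene Prox1, and of 22 mesoderm symbols 2 did, Kdr and Tbx20. Of 22 neuroectoderm symbols 2 did, Nes and Ncam1, neither of which passed, although both were higher without C4 (adjusted p = 0.0324 and 0.0270), and Nes also with DESeq2 (0.0346) and with a replicate block (0.0320). Of 20 trophoblast symbols 2 did, Plet1 and Peg10, both higher (3.60 ± 0.87 and 1.13 ± 0.26); the Plet1 call was lost without XEN A (adjusted p = 0.0590). The blood and endothelium list had 13 genes tested, of which 5 rose, 7 fell and 1 missed the threshold, with a median of -1.75. The endothelial adhesion gene Pecam1 was lower, from 99.7, 73.9 and 72.5 to 5.51 and 1.55 CPM (-4.54 ± 0.52), as was the erythroid factor Gata1 (-6.71 ± 0.88). Of 19 symbols of this list 3 reached 10 CPM, Kdr, Runx1 and Flt1, and the Kdr call was lost without XEN B (adjusted p = 0.0569). Flt1, a receptor of the vascular growth factor family, stood at 1.18, 1.73 and 2.16 CPM in the knockout ES cells and 215 and 161 CPM in the wild-type XEN cells (6.79 ± 0.71), and Runx1 at 0.408, 0.672 and 0.901 CPM in the knockout ES cells and 77.3 and 73.5 CPM in the wild-type XEN cells (6.81 ± 0.31). The haematopoietic marker Ptprc and the globins Hba-a1 and Hbb-bh1 were at or near 0 in all 5 libraries, and the brain marker Sox1 was lower (-4.36 ± 0.57).

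The XEN libraries A and B differed in part of these lists, with 1 library each and hence no test. Among 9359 genes at 10 CPM or more in both, B was above A in 5138 (54.9%), and the median log2 difference of B minus A was 0.04. In the parietal endoderm list B was above A in 15 of 23 members (median 0.59), and in the visceral endoderm list in 8 of 24 (median -0.23). In the basement membrane list, which shares matrix chains with the parietal list, B was above A in 12 of 25 (median -0.004). Among list members at 10 CPM or more in both, those that differed most were Enpep, Col27a1, Fst and Pdgfra, higher in B, and Apob, Igfbp2, Afp and Col1a1, higher in A. Col27a1 stood at 15.1 and 66.7 CPM and Igfbp2 at 80.0 and 18.3 CPM in A and B. Epithelial junction and keratin genes were above A in B for 3 of 27 (median -0.55), and plasma protein genes for 3 of 13. Sterol and fatty acid synthesis genes were lower in B for all but 2 of 28 members (median -0.83). Sqle, squalene epoxidase, stood at 119 and 45.1 CPM and Cyp51 at 174 and 61.1 CPM in A and B, so that Sqle was lower than in ES cells without XEN A (adjusted p = 0.00651) and Cyp51 higher without XEN B (0.00132), and neither passed with both. The exceptions were Insig1 (310.5 and 554 CPM), which restrains this pathway, and the sterol carrier Stard4 (119 and 149.6 CPM). Mitochondrial transcripts held a larger share in B, 2.64% against 1.94%, as did the 10 most abundant genes, 10.3% against 7.75%, and their part in these differences was not tested.

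**Figure D4:**
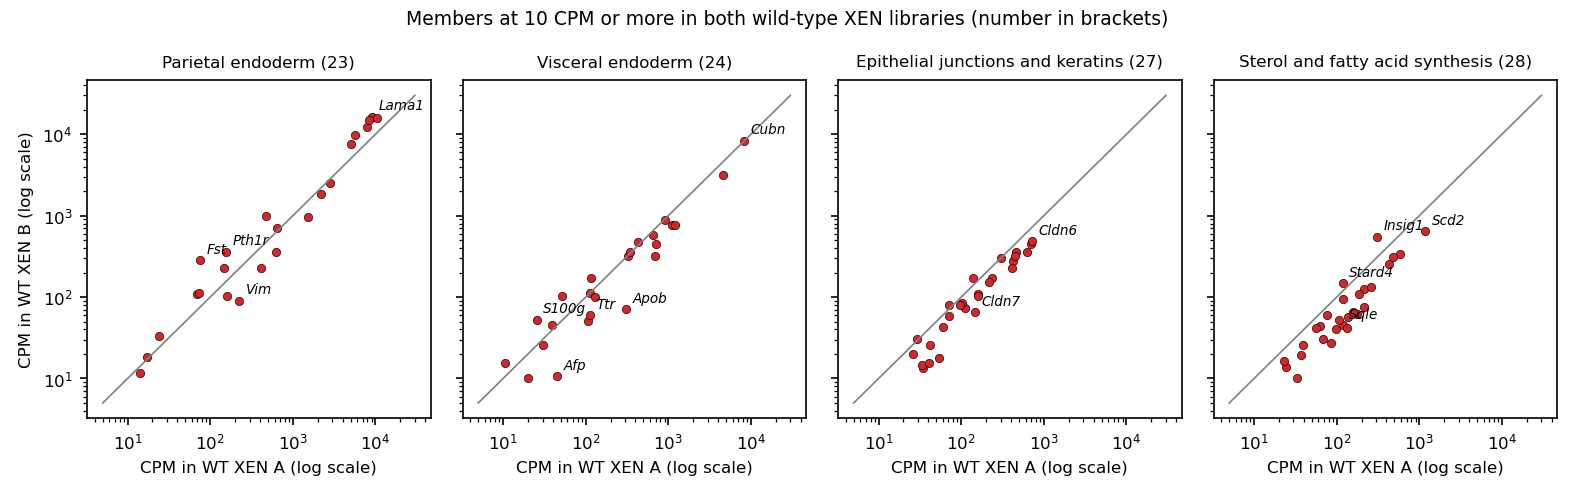
Level in wild-type XEN B against A (CPM, log axes) for members of 4 lists at 10 CPM or more in both, with the line of equality; each point is a gene. Parietal endoderm points lie above the line in 15 of 23 genes (65.2%, against 54.9% over all genes). Visceral endoderm points lie below it in 16 of 24 genes, as do all but 2 of 28 sterol and fatty acid synthesis points.

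Among the ES libraries, some endoderm genes differed between the knockout lines before differentiation. Of 11 primitive endoderm regulators with at least 1 CPM in an ES library, both 5-3 libraries were above C4 in 11. Any 1 ES library could meet this limit, so a gene could enter through line 5-3 alone, as Gata4 did. That count is therefore set in part by the limit and is not a test of the regulators. At the same limit, both 5-3 libraries were above C4 in 14 and below it in 7 of 21 parietal endoderm genes. The visceral endoderm list was near even, with 9 above and 7 below of 18, as was the basement membrane list, with 14 above and 12 below of 26. Over all 14443 genes at this limit 6220 were above and 6220 below. The regulator, visceral, parietal and basement membrane lists held 84 genes that were higher in XEN cells. With no limit on their ES level, both 5-3 libraries were above C4 in 53 of these and below it in 18. The share over all genes was not counted without the limit, so these numbers have no background to be read against. Dab2, at 1.66, 14.1 and 15.2 CPM, and Col4a2, at 3.05, 15.7 and 16.4 CPM, show the size of the gap, which was small beside the XEN levels, 2003 and 2253 CPM for Dab2 and 4989 and 7494 CPM for Col4a2. The difference has 1 library for C4 and was not tested.

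**Figure D5:**
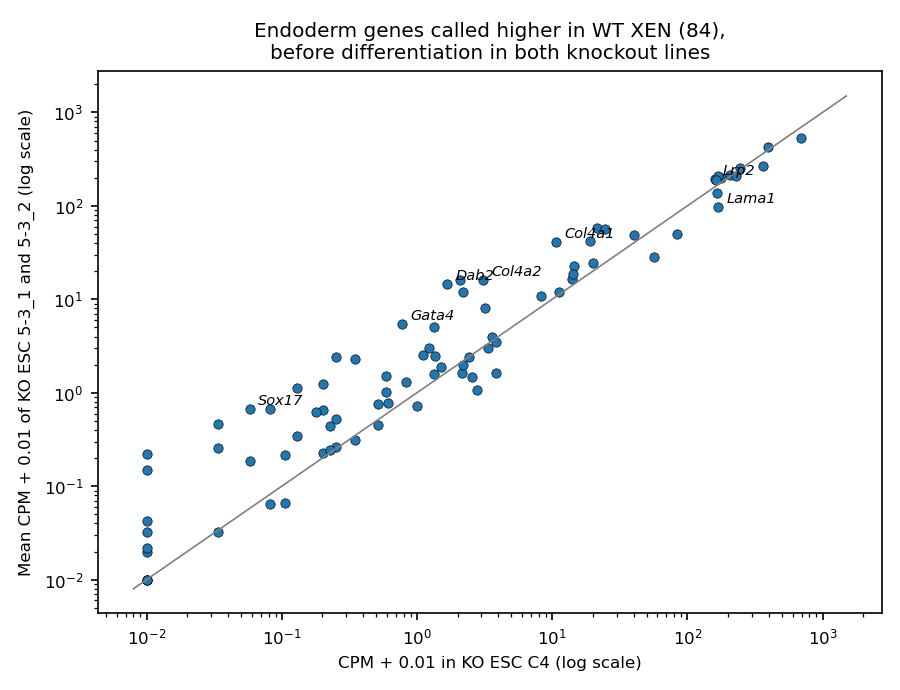
Mean level of the 2 libraries of line 5-3 against line C4 in knockout ES cells (CPM + 0.01, log axes) for the 84 endoderm genes that were higher in wild-type XEN cells, with the line of equality. Both 5-3 libraries exceed C4 in 53 of the genes, Gata4, Sox17, Dab2, Col4a1 and Col4a2 among them, and lie below it in 18. The share over all genes was not counted at this setting.

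Knockout XEN cells share the genotype of the ES cells and the treatment of the wild-type XEN cells, and their values are set beside those above, with the same ES libraries as reference. In that comparison 34.8% of genes were higher and 34.3% lower. Of the same 36 visceral endoderm genes, 13 were higher and 10 were lower in knockout XEN over knockout ES cells, with a median log2 fold change of 1.10, and of the 24 parietal endoderm genes 22 were higher and 0 lower, with a median of 5.24. Of the 27 retinoic acid genes, 23 were higher and 1 lower, with a median of 5.22. In knockout XEN C4 and 5-3, Cubn stood at 8.64 and 88.5 CPM and Lrp2 at 43.3 and 52.1 CPM. Lama1 stood at 116 and 300.04 CPM, Col4a1 at 1119.5 and 1493 CPM, Sparc at 4746 and 5256 CPM and Cyp26b1 at 508 and 546 CPM. Cyp26a1 stood at 82.2 and 94.2 CPM, below its 659 and 1004 CPM in wild-type XEN A and B. Of the 27 retinoic acid genes, 1 was higher and 16 were lower in wild-type XEN over knockout XEN cells. Over all genes that contrast had 23.9% higher and 22.3% lower.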

How the data were processed

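RNA from 7 libraries (TruSeq RNA kit, HiSeq2000, per the labels' protocols) had been aligned with STAR 2.4.2a and counted with featureCounts 1.4.5-p1 on mm10, per the submitters' processing notes. The authors deposited raw counts per Ensembl gene, 43629 genes in 7 columns. The strand setting, the annotation release and the filters of that counting are not given in the sources used here, so antisense and overlapping genes, and multi-copy genes such as Gapdh, are uncertain. Total counts ran from 36427340 to 48650113 in the 5 libraries compared and were 13941826 and 33389566 in the knockout XEN libraries.

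Symbols, positions and exon lengths came from GENCODE M21 (GRCm38, that is mm10), which matched 42548 IDs; the 1081 others held 0.136% of counts. A fit with edgeR 4.0.16 (quasi-likelihood, TMM, filterByExpr, R 4.3.3) covered all 7 libraries in 3 groups so that they share 1 estimate of the spread; 18426 genes were tested and 25203 set aside as too low. A call is a Benjamini-Hochberg adjusted p below 0.05. The residual degrees of freedom were 4. Counting ratios have exact 95% intervals that cover counting error only, and a group at 0 was set to a floor of 3 counts over the group.

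The members and the 33 gene lists (905 symbols, 5 of them unmatched) and 5 symbol families were chosen with earlier results of these data known. The rule for named genes took Ago2; the 8 largest rises and falls of at least 10 CPM without overlap; up to 4 called members of smallest adjusted p per list and up to 2 that went against the list; the 4 list members that differed most between XEN A and B in each direction among genes of at least 10 CPM in both; and the 10 highest rises per kilobase. Other genes were named after their values were seen, and some genes that the rule takes are not reported here. Alternatives were RLE scaling, no filter, DESeq2 1.42.0, only the 5 libraries, a replicate block, leaving out each library and a 2-fold limit, and, for shares of counts, TMM-scaled totals and totals without mitochondrial transcripts. Promoter windows are RefSeq (GRCm38.p6). A planned list of proteins with an ER retrieval signal was not made, since no protein sequences were used here.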

Additional observations from a re-analysis of the deposited data

How the results depend on the processing

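The counts of higher and lower genes, 5937 and 5584, became 5844 and 5698 with RLE scaling, 6016 and 5411 with no filter, 5867 and 5766 with DESeq2, 5696 and 5402 in the 5 libraries alone, and 4766 and 4109 with a 2-fold limit. Leaving out each library in turn gave 5216 to 6062 higher and 4308 to 5740 lower genes, and no gene called in both fits changed direction in any alternative that was run. The median log2 fold change over all genes stayed between -0.11 and 0.00. Of the counts of higher or lower members of the gene lists over these alternatives, 716 stayed within 1.5 times of the reported count and 44 moved further. All but 1 of these 44, that of the anterior visceral endoderm list in the 5 libraries alone, came from leaving out a library, mostly in small counts of lower genes. The COPI and Golgi and the vacuolar ATPase lists, with 0 lower genes each, had 1 each without XEN A. Of the mean shares of counts of the lists in each group, 25 stayed within the spread between libraries with the other totals and 11 moved further, among them ER folding in XEN cells (1.63% to 1.68% with TMM-scaled totals and 1.66% without mitochondrial transcripts). Knockout XEN and ES libraries carry the same line names, but the deviations of C4 from 5-3 in the 2 states correlated across genes with r of only 0.0566, so the lines were not taken as pairs; a replicate block for the line gave 6085 higher and 5612 lower genes. Of 256 genes named and tested, 227 kept their direction and side of the threshold in all 10 alternatives and 29 crossed the threshold in some, none with a change of direction; those whose crossing touches a statement are given with it. When a wild-type XEN library was left out, the lone remaining library was assumed to vary like the other groups. The 25203 genes too low to test could not be compared at this depth.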
